A study of Mus musculus with 12 samples.

Results

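The 10 genes described here are Glul, Oat, Slc1a2, Slc1a4, Rhbg, Tbx3, Lgr5, Axin2, Cyp2e1 and Cyp1a2. They were taken by symbol from the authors' table, as genes of the hepatocyte layer around the central vein that handle glutamate and ammonium or respond to Wnt. The choice was made with earlier results of these data known. All 10 were among the 34986 genes of the table, and all 10 were among the 19006 genes tested. RNA sequencing was done on whole liver of female C57BL/6 mice aged 16 weeks, with 6 mice given valproic acid and obeticholic acid together (VPA_OCA) and 6 given valproic acid alone (VPA). Valproic acid is prescribed against epilepsy and can damage the liver. Obeticholic acid, made from a bile acid, is an agonist of the bile acid receptor FXR. The series is about FXR in liver injury by valproic acid, and every animal compared here received that drug. Mice without it were not analysed here, and the sources used here give neither dose nor treatment time.

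Hepatocytes differ along the axis that blood follows from portal vein to central vein. Endothelial cells of the central vein release Wnt ligands, and hepatocytes next to it answer through beta-catenin. These cells take up glutamate and ammonium that upstream hepatocytes have left over and join them into glutamine, while upstream cells make urea. That the 10 genes belong to this layer is background knowledge, since whole liver gives no position. The layer also carries much of the cytochrome P450 that oxidises drugs.

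With obeticholic acid added, the glutamate transporter gene Slc1a2 and the ammonium transporter gene Rhbg fell, by 1.65-fold and 1.635-fold. The gene of ornithine aminotransferase, Oat, was 1.79-fold lower without passing the test. It passed with the replicate number as a block, or with a term for numbers 1 to 3 against 4 to 6, but within neither set alone. The labels do not say what a number marks. Glul, which makes glutamine from the glutamate and ammonium so taken up, measured 14320 ± 1119 normalized counts in VPA_OCA and 15120 ± 520 in VPA (SD, n = 6 each) and did not pass. The Wnt-responsive genes Lgr5, Axin2 and Tbx3 and the cytochrome P450 genes Cyp2e1 and Cyp1a2 did not pass either. Whole liver was sequenced, so fewer cells of a type and less RNA per cell cannot be told apart. A normalized count is an estimated read count divided by the authors' factor for that library. Values were compared as log2(normalized count + 1), with fold changes as VPA_OCA over VPA, and adjusted p-values are from limma with Benjamini-Hochberg adjustment over all genes tested, with a threshold of 0.05.

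Promoter letters of Slc1a2 and Oat, which had the largest differences among the genes with a promoter in the RefSeq table, are set beside those of Glul and Cyp2e1, which did not pass. Each line gives the 250 bases before the RefSeq start site (GRCm38.p6), 5′ to 3′ on the gene's strand, with capitals marking letters that the Wnt effectors TCF and LEF are known to bind. Slc1a2 is at chr2:102706188-102706437 (plus strand), Oat at chr7:132576399-132576648 (minus strand), Glul at chr1:153899679-153899928 (plus strand) and Cyp2e1 at chr7:140763569-140763818 (plus strand).
Slc1a2: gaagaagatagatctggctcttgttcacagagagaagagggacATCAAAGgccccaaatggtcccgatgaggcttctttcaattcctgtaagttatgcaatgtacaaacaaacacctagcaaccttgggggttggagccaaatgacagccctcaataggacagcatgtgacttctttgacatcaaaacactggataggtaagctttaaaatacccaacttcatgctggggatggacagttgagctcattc
Oat: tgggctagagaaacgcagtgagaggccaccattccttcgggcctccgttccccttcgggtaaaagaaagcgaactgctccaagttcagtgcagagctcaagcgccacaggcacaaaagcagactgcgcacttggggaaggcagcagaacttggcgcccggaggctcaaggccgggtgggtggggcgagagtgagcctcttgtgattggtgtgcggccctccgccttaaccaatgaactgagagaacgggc
Glul: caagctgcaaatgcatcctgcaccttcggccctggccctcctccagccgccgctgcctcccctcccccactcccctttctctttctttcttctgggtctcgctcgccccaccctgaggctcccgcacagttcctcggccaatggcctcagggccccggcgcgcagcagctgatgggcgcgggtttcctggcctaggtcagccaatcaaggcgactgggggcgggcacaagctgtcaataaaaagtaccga
Cyp2e1: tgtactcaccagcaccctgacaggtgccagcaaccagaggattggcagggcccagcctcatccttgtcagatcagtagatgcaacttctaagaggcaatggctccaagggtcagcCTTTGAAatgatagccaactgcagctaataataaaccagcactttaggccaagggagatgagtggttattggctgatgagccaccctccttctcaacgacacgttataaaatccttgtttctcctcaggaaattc
The letters searched were CTTTG followed by 2 bases that are each adenine or thymine, on both strands, in windows of 300 bases that also took in 50 bases after the start. They were present in 3 of the 7 genes with a window, against 16.9% of 32851 windows of all genes. In Slc1a2 the match lay at positions -207 to -201 on the opposite strand, in Cyp2e1 at -135 to -129, and in Cyp1a2 at -244 to -238. Oat, Glul, Slc1a4 and Axin2 had no match. An inverted repeat, AGGTCA and its reverse complement with 1 base between them, is a form of the element that FXR binds with its partner RXR; it was in none of the 7 windows and in 0.00913% of all. The direct repeat of AGGTCA with 1 base between was in none of the 7 and in 0.0396% of all. Letters so rare would be missing from nearly any 7 windows, so their absence decides nothing about FXR. A single AGGTCA was in 16.3% of all windows. Among the 7 it was in Glul at -57 to -52 and in Slc1a2 at 44 to 49, past the printed bases. Binding was not tested. The RefSeq start of Slc1a2 lies within the span the authors' table gives that gene. That span starts upstream, at 102658659, so the whole printed window and its marked letters lie inside the gene as the authors placed it.

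The libraries held 20236900 to 22087711 normalized counts each. Estimated depths were 17879222 reads (VPA replicate 3) to 37766890 (VPA_OCA replicate 1), with 10 of 12 libraries between 19683964 and 22021646. Slc51b, a bile acid exporter gene that FXR is known to induce, measured 174 ± 44.6 in VPA_OCA and 19.15 ± 8.78 in VPA (limma adjusted p = 5.74e-05). Nr1h4, the gene of FXR, measured 2250 ± 372 in VPA_OCA and 2746 ± 556 in VPA (limma adjusted p = 0.565). Libraries numbered 1 to 3 stood apart from those numbered 4 to 6 in both groups, at or below -10.29 and at or above 16.27 on the first principal component, which held 40.4% of the variance over 11481 genes. The labels name no batch, so values within each set of numbers (n = 3 per group) are given beside pooled ones. Nothing in the labels beyond 6 mice per treatment describes how replicates were raised or housed.

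**Figure D1:**
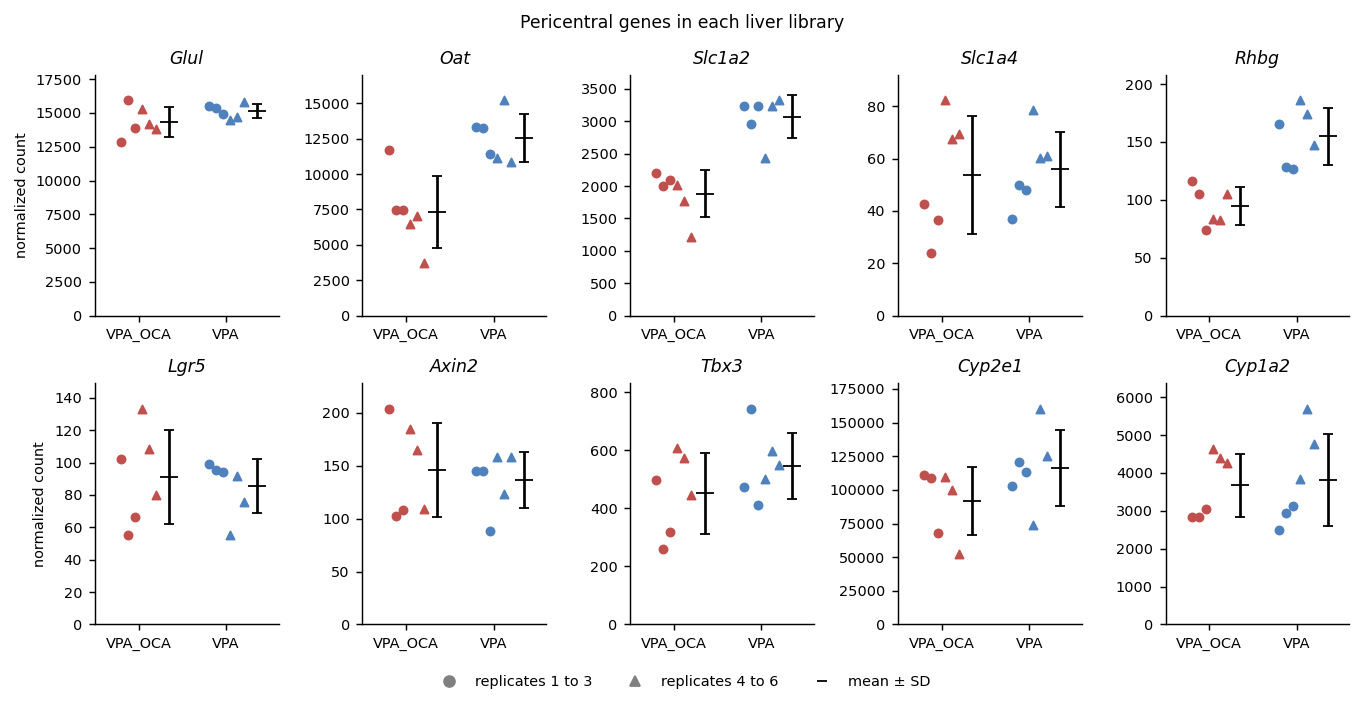
Normalized counts of the 10 genes in each library (vertical axes, from 0), with VPA_OCA on the left and VPA on the right of each panel; circles are replicates 1 to 3, triangles replicates 4 to 6, and bars the mean ± SD. The 6 VPA_OCA values of Slc1a2 (at most 2209) and of Rhbg (at most 115.9) all lie below the 6 VPA values (at least 2436 and 126.5), while groups overlap for the other 8 genes.

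Slc1a2 (ENSMUSG00000005089; chromosome 2, 102658659 to 102790784, plus strand, GRCm38) encodes the high-affinity glutamate transporter GLT-1, which in liver brings glutamate into pericentral hepatocytes. Its lowest, median and highest normalized counts were 1220, 2007 and 2209 in VPA_OCA, against 2436, 3234 and 3322 in VPA. Every VPA_OCA library was below every VPA library, with VPA_OCA replicate 6 lowest of all and VPA replicate 4 lowest in its group. Slc1a2 averaged 1885 ± 356 in VPA_OCA and 3072 ± 335 in VPA (SD, n = 6 each), a log2 fold change of -0.72 ± 0.13 (SE; 95% interval -1.01 to -0.44) with a limma adjusted p of 0.0161. Within numbers 1 to 3 it measured 2099 ± 106 in VPA_OCA and 3148 ± 160 in VPA, and that set alone passed (limma adjusted p = 0.0393). Within numbers 4 to 6 the values were 1671 ± 409 in VPA_OCA and 2996 ± 487 in VPA, with a larger log2 difference of -0.86 and an adjusted p of 0.107. The call was lost without VPA replicate 3 (0.0508) or VPA replicate 6 (0.0519), with limma adjusted p-values of 0.0105 to 0.0519 over the 12 libraries left out in turn.

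Rhbg (ENSMUSG00000104445; chromosome 3, 88242874 to 88254709, minus strand) encodes a membrane channel of the Rhesus family that passes ammonium and ammonia. It had 74.27, 94.24 and 115.9 normalized counts as lowest, median and highest in VPA_OCA, against 126.5, 156.6 and 185.9 in VPA. These groups did not overlap either, and the gap between them was narrow, at 115.9 in VPA_OCA replicate 1 and 126.5 in VPA replicate 3. Rhbg averaged 94.4 ± 16.4 in VPA_OCA and 154.8 ± 24.5 in VPA (SD, n = 6 each), a log2 fold change of -0.71 ± 0.14 (SE; 95% interval -1.02 to -0.40) with a limma adjusted p of 0.0333. Within numbers 1 to 3 it averaged 98.3 in VPA_OCA (74.27 to 115.9) and 140.3 in VPA (126.5 to 165.7; log2 difference -0.52, limma adjusted p = 0.337). Within numbers 4 to 6 it measured 90.6 ± 12.8 in VPA_OCA and 169.2 ± 19.7 in VPA (log2 difference -0.90, limma adjusted p = 0.0525), so neither set alone passed. In 7 of 12 cases of 1 library left out the call was lost (VPA replicates 1, 4, 5 and 6; VPA_OCA replicates 3, 4 and 5), with limma adjusted p-values of 0.0264 to 0.0884 over all 12 cases.

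Oat (ENSMUSG00000030934; chromosome 7, 132557478 to 132576398, minus strand) encodes ornithine aminotransferase, a mitochondrial enzyme that yields glutamate from ornithine. Its lowest, median and highest values were 3734, 7268 and 11720 normalized counts in VPA_OCA, against 10820, 12320 and 15200 in VPA. In VPA_OCA, 5 of 6 libraries were below the lowest VPA library, and the overlap came from VPA_OCA replicate 1 alone, at 11720. That library also had the highest estimated depth, at 37766890 reads, and the part of depth in its value was not tested. Oat averaged 7323 ± 2573 in VPA_OCA and 12520 ± 1692 in VPA (SD, n = 6 each), a log2 fold change of -0.84 ± 0.20 (SE; 95% interval -1.27 to -0.41), larger in size than that of Slc1a2 or Rhbg but with a wider interval. Its limma adjusted p was 0.0773 over all 12 libraries, 0.0157 with the replicate number as a block and 0.018 with a term for numbers 1 to 3 against 4 to 6. Within numbers 1 to 3 it measured 8895 ± 2446 in VPA_OCA and 12660 ± 1076 in VPA, and within 4 to 6 it measured 5751 ± 1773 in VPA_OCA and 12390 ± 2439 in VPA, with limma adjusted p-values of 0.262 and 0.0867. It also passed without VPA_OCA replicate 1 (limma adjusted p = 0.0156), and in no other case of 1 library left out.

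Glul (ENSMUSG00000026473; chromosome 1, 153899944 to 153909723, plus strand) encodes glutamine synthetase, the enzyme that defines the innermost pericentral hepatocytes. It measured 12850, 14020 and 15930 normalized counts as lowest, median and highest in VPA_OCA, against 14450, 15130 and 15790 in VPA. The VPA range lay inside the VPA_OCA range, and Glul varied least of the 10 genes, with a coefficient of variation of 7.81% in VPA_OCA and 3.44% in VPA. The log2 fold change was -0.08 (95% interval -0.27 to 0.11; limma adjusted p = 0.86), an interval that ends short of the estimates of Slc1a2, Rhbg and Oat.

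Slc1a4 (ENSMUSG00000020142; chromosome 11, 20302180 to 20332713, minus strand) belongs to the same solute carrier family as Slc1a2 and carries neutral amino acids such as alanine and serine rather than glutamate. Its lowest, median and highest normalized counts were 23.92, 55.07 and 82.22 in VPA_OCA, against 37.1, 55.14 and 78.59 in VPA. The groups overlapped almost fully, and both split by replicate number instead: 34.3 ± 9.48 in VPA_OCA and 45.03 ± 6.94 in VPA in numbers 1 to 3, and 73.1 ± 7.94 in VPA_OCA and 66.7 ± 10.3 in VPA in numbers 4 to 6. The log2 fold change was -0.14 (95% interval -0.73 to 0.45; limma adjusted p = 0.943), -0.41 within numbers 1 to 3 and 0.14 within 4 to 6.

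Of the Wnt-responsive genes, Lgr5 (ENSMUSG00000020140; chromosome 10, 115450311 to 115587780, minus strand) encodes a receptor for R-spondins, which strengthen Wnt signals. Lgr5 had 55.14, 91.09 and 133.0 normalized counts as lowest, median and highest in VPA_OCA, against 55.5, 92.84 and 98.99 in VPA. Its log2 fold change was 0.055 (95% interval -0.40 to 0.51; limma adjusted p = 0.973), with opposite signs in the sets of numbers. In numbers 1 to 3 Lgr5 measured 74.6 ± 24.6 in VPA_OCA and 96.3 ± 2.45 in VPA (log2 difference -0.41), and in 4 to 6 it measured 107.1 ± 26.6 in VPA_OCA and 74.3 ± 18.04 in VPA (0.52). A limma interaction of group with number set, chosen after the data were seen, gave a difference of 0.93 ± 0.35 (SE) between the sets, with an unadjusted p of 0.0182 and an adjusted p of 0.536. For the 10 genes the adjusted p-values of this interaction were 0.536 to 0.979, so none passed.

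Axin2 (ENSMUSG00000000142; chromosome 11, 108920349 to 108950783, plus strand), an inhibitor of Wnt signalling that the pathway itself induces, measured 103.0, 137.1 and 203.6 normalized counts as lowest, median and highest in VPA_OCA, against 88.56, 145.2 and 158.2 in VPA. Its groups overlapped, with a log2 fold change of 0.065 (95% interval -0.36 to 0.49; limma adjusted p = 0.967). Tbx3 (ENSMUSG00000018604; chromosome 5, 119670669 to 119684724, plus strand), a T-box transcription factor of pericentral hepatocytes, measured 259.0, 473.2 and 609.1 in VPA_OCA, against 413.3, 524.4 and 742.1 in VPA. Tbx3 was low in VPA_OCA replicates 2 and 3, at 259.0 and 320.1, below every other library. Its log2 fold change was -0.31 (95% interval -0.74 to 0.11; limma adjusted p = 0.696), with -0.60 within numbers 1 to 3 and -0.02 within 4 to 6.

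Cyp2e1 (ENSMUSG00000025479; chromosome 7, 140763739 to 140774987, plus strand), a cytochrome P450 that oxidises ethanol and small solvents, was the most abundant of the 10, at rank 21 of 19006 genes by mean normalized count. It had 52010, 104600 and 111300 normalized counts as lowest, median and highest in VPA_OCA, against 74280, 117200 and 160000 in VPA. VPA_OCA replicates 6 and 3 were low, at 52010 and 67880, and 4 of 6 VPA libraries were above the highest VPA_OCA library. The log2 fold change was -0.36 (95% interval -0.86 to 0.15, limma adjusted p = 0.711). That interval takes in 0 and also the estimates of Slc1a2, Rhbg and Oat. Cyp1a2 (ENSMUSG00000032310; chromosome 9, 57676937 to 57683703, minus strand), a cytochrome P450 that the aryl hydrocarbon receptor induces, measured 2839, 3656 and 4629 in VPA_OCA, against 2502, 3496 and 5685 in VPA. It followed the replicate numbers, with 2915 ± 124 in VPA_OCA and 2865 ± 328 in VPA in 1 to 3, and 4428 ± 189 in VPA_OCA and 4764 ± 917 in VPA in 4 to 6. Between groups its log2 fold change was -0.03 (95% interval -0.45 to 0.39; limma adjusted p = 0.986).

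**Figure D2:**
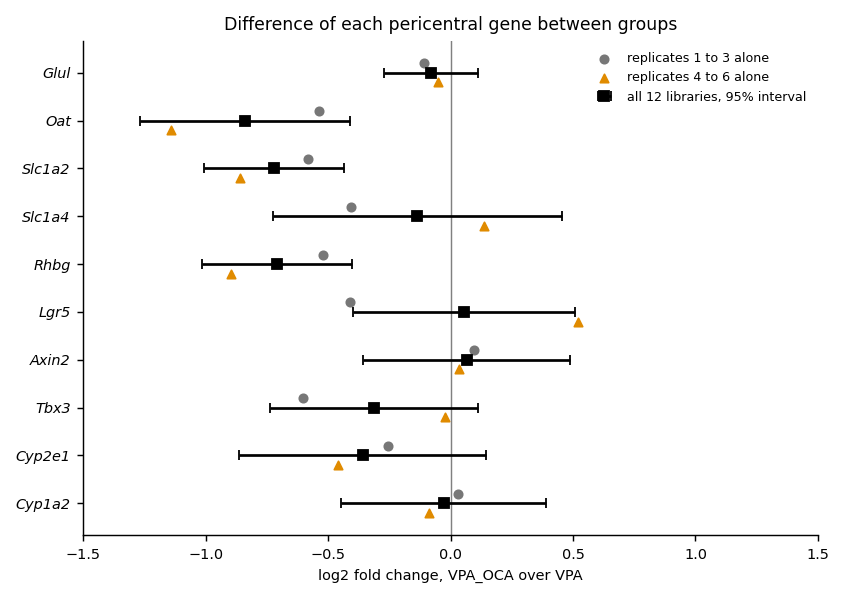
Log2 fold change, VPA_OCA over VPA (horizontal axis), of each gene over all 12 libraries (squares, with 95% intervals) and within replicates 1 to 3 (circles) or 4 to 6 (triangles). The intervals of Oat (-1.27 to -0.41), Slc1a2 (-1.01 to -0.44) and Rhbg (-1.02 to -0.40) lie below 0 while the other 7 span it, and the set values of Lgr5 (-0.41 and 0.52) and Slc1a4 (-0.41 and 0.14) have opposite signs.

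Over the 10 genes, 2 were lower in VPA_OCA, 0 were higher and 8 did not pass, where 0.279% of all genes tested were called lower, 0.442% higher and 0.721% in either direction. Because the 10 were chosen with earlier results of these data known, the counts and shares in this paragraph cannot show an excess among them. Within numbers 1 to 3 alone 1 was lower, beside 0.253% of all genes, and within 4 to 6 alone 0, beside 0.153%. With the replicate block 3 were lower, beside 0.426% of all genes, and with the term for numbers the same 3 genes, Slc1a2, Rhbg and Oat, were lower, beside 0.789%. Groups without overlap and lower in VPA_OCA were found for 2 of the 10 and for 0.526% of all genes. The log2 fold change was negative for 8 of the 10, with a median of -0.225, and for 50.1% of all genes, with a median of -0.001. In the authors' deposited table, 3 of the 10 had an adjusted p under 0.05, beside 5.57% of the 12517 genes the authors call present. These were Slc1a2 (8.78e-05), Oat (0.000914) and Rhbg (0.00154), and the other 7 had adjusted p-values of 0.268 to 0.868 there. Without an intensity trend in limma neither Slc1a2 (adjusted p = 0.0675) nor Rhbg (0.06) passed.

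Levels of different genes were compared per length, as the authors' FPKM values. In VPA_OCA the order was Cyp2e1 (3436 ± 905), Glul (694 ± 41.4), Oat (277 ± 98.4), Cyp1a2 (139.8 ± 31.4), Slc1a2 (51.5 ± 9.76), Tbx3 (6.76 ± 2.04), Axin2 (4.02 ± 1.21), Rhbg (2.29 ± 0.394), Lgr5 (1.77 ± 0.550) and Slc1a4 (0.647 ± 0.269). The order of means in VPA was the same, with Oat at 471 ± 68.6, Cyp1a2 at 144.4 ± 45.4, Slc1a2 at 83.3 ± 7.57, Axin2 at 3.76 ± 0.774 and Rhbg at 3.73 ± 0.612. Neighbours whose ranges overlapped in VPA_OCA were Oat and Cyp1a2, Tbx3 and Axin2, Axin2 and Rhbg, and Rhbg and Lgr5. In VPA only Axin2 and Rhbg overlapped. Slc1a2 and Rhbg, both transporter genes with a fall of like size, thus sat at unlike levels.

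Slc1a2, Oat and Rhbg were also set against their pericentral neighbours within each library, as the difference between log2 levels of a pair. These 3 genes were taken because earlier results of these data had shown them lower, so the shifts between groups are a description. A count of pairs passing a permutation test is given only in the closing section on processing, and it supports nothing. Slc1a2 relative to Glul stood at -2.95 ± 0.32 in VPA_OCA and -2.31 ± 0.15 in VPA (SD, n = 6 each), a shift of -0.64, with 5 of 6 VPA_OCA libraries below every VPA library. Oat relative to Glul stood at -1.04 ± 0.57 in VPA_OCA and -0.28 ± 0.20 in VPA, a shift of -0.76, with 5 of 6 below. Rhbg relative to Glul stood at -7.24 ± 0.30 in VPA_OCA and -6.62 ± 0.26 in VPA, a shift of -0.63, with 5 of 6 below. Glul varied least of the 10 genes, so these shifts lie close to the log2 fold changes of the 3 genes themselves.

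Relative to Axin2 the shifts were -0.79 for Slc1a2, -0.91 for Oat and -0.77 for Rhbg, each with 4 of 6 VPA_OCA libraries below every VPA library. Relative to Cyp2e1, which itself had a log2 fold change of -0.36, the shifts were smaller, at -0.48 for Oat, -0.36 for Slc1a2 and -0.35 for Rhbg. The level of Rhbg relative to Cyp2e1 was -9.87 ± 0.50 in VPA_OCA and -9.52 ± 0.49 in VPA, a shift within the SD of either group. The shift of Slc1a2 relative to Slc1a4 was -0.59, where Slc1a4 itself varied between 23.92 and 82.22 normalized counts.

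**Figure D3:**
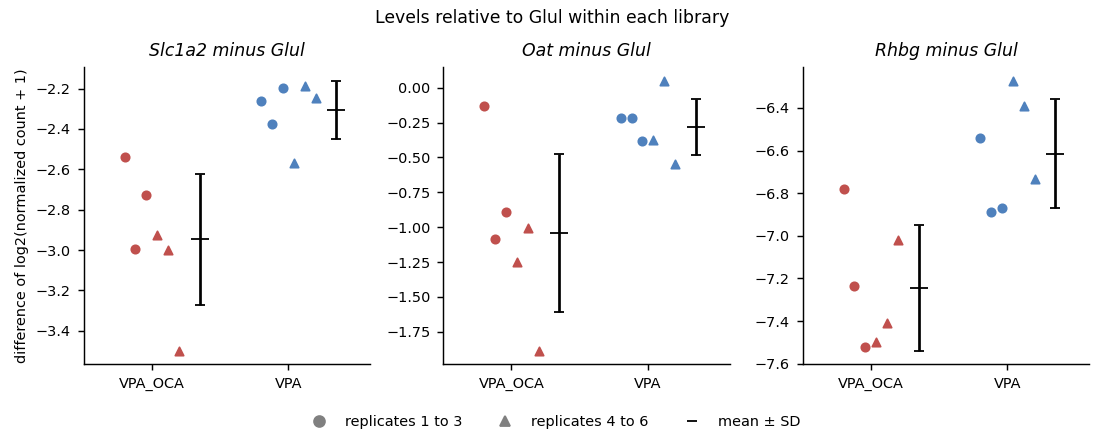
Difference of log2(normalized count + 1) between each gene and Glul in the same library (vertical axes, which do not start at 0), for Slc1a2, Oat and Rhbg, with VPA_OCA left of VPA; circles are replicates 1 to 3, triangles 4 to 6, bars the mean ± SD. In each panel 5 of 6 VPA_OCA libraries lie below all 6 VPA libraries, with shifts of -0.64, -0.76 and -0.63.

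Covariation was measured over the 12 libraries on log2 values centred within group and number set, so that neither the treatment nor the division by number enters, with exact permutation over all reorderings within those sets. Of 45 pairs, 30 had a positive Pearson r, and 0 passed adjustment over the 45, with 5 at an unadjusted p under 0.05 by Pearson and 7 by Spearman. The smallest p was that of Tbx3 with Lgr5, at r = 0.72 (exact permutation p = 0.0039, adjusted 0.17) and rho = 0.76 (p = 0.0069, exact permutation). That relation was 0.74 within numbers 1 to 3 and 0.94 within 4 to 6, and dropped to 0.49 without the 2 libraries farthest from the median. Slc1a2 with Lgr5 had r = 0.79 (exact permutation p = 0.0077, adjusted 0.17) and rho = 0.87 (p = 0.012, exact permutation), with 0.70 and 0.93 in the sets and 0.81 without 2 libraries, but 0.26 with centring by group only.

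Oat with Tbx3 had r = 0.71 (exact permutation p = 0.012, adjusted 0.19) and rho = 0.70 (p = 0.04, exact permutation). With Lgr5 Oat had r = 0.83 (exact permutation p = 0.03, adjusted 0.34) and rho = 0.79 (p = 0.051, exact permutation). Without the 2 farthest libraries these were 0.74 and 0.85, and within the sets 0.80 and 0.92 for Tbx3 and 0.92 and 0.78 for Lgr5. With centring by group only, r was 0.04 for Oat with Tbx3 and 0.18 for Oat with Lgr5. Tbx3 with Axin2 had r = 0.78 (exact permutation p = 0.043, adjusted 0.35) and rho = 0.75 (p = 0.065, exact permutation), with 0.85 and 0.60 in the sets and 0.62 without 2 libraries. Among the 3 genes with the largest group differences r ranged from -0.41 to 0.68. Oat with Slc1a2 had r = 0.68 and rho = 0.55 (exact permutation p = 0.12 for each), Slc1a2 with Rhbg r = -0.41 (p = 0.19, exact permutation), and Oat with Rhbg r = 0.06 (p = 0.91, exact permutation). Slc1a2 with Cyp2e1, at r = 0.81 (exact permutation p = 0.061), rested on numbers 4 to 6, at -0.11 within 1 to 3 and 0.95 within 4 to 6.

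**Figure D4:**
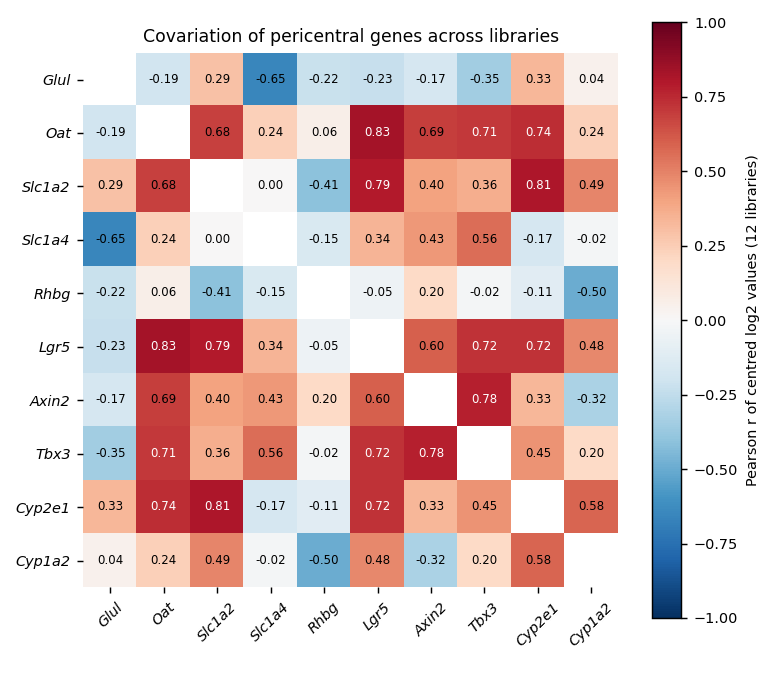
Pearson r between each pair of the 10 genes over 12 libraries, on log2 values centred within group and number set (colour scale from -1 to 1). The highest values are 0.83 for Oat with Lgr5 and 0.81 for Slc1a2 with Cyp2e1, while Rhbg has values from -0.50 to 0.20 with the other 9 genes; 0 of 45 pairs passed adjustment.

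For each gene, the transcripts most like it were ranked among 9307 genes with a mean of at least 100 normalized counts, by Pearson r over the 12 centred libraries, as a description only. Nearest to Slc1a2 were the fatty acid omega-hydroxylase genes Cyp4a14 (0.94) and Cyp4a31 (0.94), whose reads could be shared between close relatives, and the lysosomal protease gene Ctsf (0.93). Nearest to Rhbg were Ankrd49 (0.93), Zfp120 (0.93) and the leukocyte tetraspanin gene Cd53 (0.90), and nearest to Oat were Mpdz (0.90), Usp18 (0.89) and the RNA helicase gene Ddx17 (0.89). Glul was nearest to Acnat2 (0.94), Rbm12b1 (0.92) and the mitochondrial carrier gene Slc25a11 (0.91). Lgr5 was nearest to Vwa8 (0.97) and Mtx3 (0.95), and Tbx3 to Fn3krp (0.96), the splicing factor gene Esrp2 (0.96) and Pdss2. Cyp2e1 was nearest to Mug1 (0.97) and Acsl1 (0.96), which activates long-chain fatty acids, and to 4930581F22Rik (0.95). Nearest to Slc1a4 were Baz2a (0.97) and Dgkq (0.96), nearest to Axin2 were the chromatin remodeller gene Chd1 (0.94), Trpm7 (0.93) and Cul4b (0.92), and nearest to Cyp1a2 were Hypk (0.94), Rbbp5 (0.94) and Fam120b (0.93).

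Around the 10 genes, the wider lists of the same pathways were counted. Of 18 tested transporters of glutamate, glutamine and ammonium (of 22 listed), 2 fell, 0 rose and 16 did not pass, with 14 negative log2 fold changes and a median of -0.209. Beside this and every list below, 0.279% of all genes tested were called lower and 0.442% higher, and 50.1% had a negative log2 fold change. The lists too were chosen with earlier results known, so such counts are a description. Slc17a8, a vesicular glutamate transporter gene (chromosome 10, 89574020 to 89621253), measured 54.44 to 111.9 normalized counts in VPA_OCA, against 160.4 to 311.8 in VPA. Its groups did not overlap, as for 0.526% of all genes in that direction. Slc17a8 averaged 76.4 ± 22.4 in VPA_OCA and 212 ± 56.2 in VPA, a log2 fold change of -1.47 with a limma adjusted p of 0.00173. Slc1a5, a glutamine transporter gene of the Slc1a2 family (chromosome 7, 16781340 to 16798274), measured 28.52 to 69.49 in VPA_OCA, against 68.51 to 107.8 in VPA, with an overlap of 1 library in each group. It averaged 46.4 ± 13.3 in VPA_OCA and 87.4 ± 15.6 in VPA, a log2 fold change of -0.93 with a limma adjusted p of 0.0367. Without any 1 of VPA replicates 1 to 5 or VPA_OCA replicates 1 to 5 its call was lost, with limma adjusted p-values up to 0.0931, and so it was in limma without trend (0.0637), with no filter on low values (0.0574), within numbers 1 to 3 (0.059), within 4 to 6 (0.314) and without both VPA replicates 4 and 5 (0.116). The difference was -1.19 within numbers 1 to 3 and -0.67 within 4 to 6. Slc7a5 (38.9 ± 13.1 in VPA_OCA and 54.5 ± 8.23 in VPA) and the mitochondrial ornithine carrier Slc25a15 (5106 ± 331 in VPA_OCA and 5854 ± 717 in VPA) had limma adjusted p-values of 0.449 and 0.547.

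Of 23 enzymes of glutamate, glutamine and ornithine, 0 passed, with 15 negative log2 fold changes and a median of -0.126. The lowest p-values there were those of the alanine aminotransferase gene Gpt2, at 8313 ± 2145 in VPA_OCA and 11110 ± 1879 in VPA (limma adjusted p = 0.359), Prodh2 (0.455), Nags (0.494) and Ppat (0.645). Unadjusted p-values under 0.05 were found for Gpt2 (0.0177), Prodh2 (0.0319) and Nags (0.0396). For this and every list below, the share of all genes at such a p is not given here. Counts at an unadjusted p are thus no result about a list. Among 14 other pericentral hepatocyte genes 0 passed, with 11 negative and a median of -0.132. The vasopressin receptor gene Avpr1a measured 241 ± 79.2 in VPA_OCA and 314 ± 53.6 in VPA (limma adjusted p = 0.514), Cyp2a5 measured 30430 ± 12690 in VPA_OCA and 41350 ± 8061 in VPA (0.532), and Gstm3 and Aldh1a1 had adjusted p-values of 0.655 and 0.686. Avpr1a was the only one of these 14 at an unadjusted p under 0.05 (0.0472).

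Of 12 Wnt target and effector genes, 1 rose and 11 did not pass, where 0.442% of all genes tested were called higher. Log2 fold changes were negative for 4 of the 12, with a median of 0.104. Ccnd1, the cyclin D1 gene, measured 5447 to 8086 normalized counts in VPA_OCA, against 1850 to 2893 in VPA, without overlap. The share of all genes without overlap and higher in VPA_OCA is not given here. Ccnd1 averaged 6257 ± 977 in VPA_OCA and 2424 ± 427 in VPA, a log2 fold change of 1.37 with a limma adjusted p of 5.74e-05. Znrf3, a Wnt receptor ligase gene, measured 156 ± 18.9 in VPA_OCA and 195 ± 22.7 in VPA (limma adjusted p = 0.328), and Tnfrsf19, Myc and Nkd1 had adjusted p-values of 0.454, 0.536 and 0.695. Within numbers 4 to 6 alone Tnfrsf19 was higher (log2 difference 0.992, limma adjusted p = 0.0197), against -0.12 within 1 to 3. The share of all genes called higher within 4 to 6 is not given here. Lgr5 and Axin2, with log2 fold changes of 0.055 and 0.065, lay close to the median of this list. Of 23 Wnt ligands, receptors and pathway genes 0 passed in limma, 3 had an unadjusted p under 0.05, and 15 were negative, with a median of -0.058. The coreceptor gene Lrp6 measured 946 ± 132 in VPA_OCA and 1181 ± 67.2 in VPA (limma adjusted p = 0.197, unadjusted 0.00458), and Porcn, Gsk3b and Axin1 had adjusted p-values of 0.315, 0.474 and 0.65.

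At the other end of the axis, 0 of 15 periportal hepatocyte genes passed in limma, 4 had an unadjusted p under 0.05, and there were 6 negative log2 fold changes and a median of 0.076. The share of all genes at an unadjusted p under 0.05 is not given here, so the 4 cannot be set against it. With the term for numbers 3 rose: Hal, the histidine ammonia-lyase gene, at 11750 ± 1458 in VPA_OCA and 8021 ± 1865 in VPA (limma adjusted p = 0.115, 0.0148 with the term), Etnppl (0.271, 0.0279) and Cyp2f2 (0.576, 0.0289), beside 1.34% of all genes called higher with it. None of these passed with the replicate block. Pigr and Hsd17b6 had limma adjusted p-values of 0.347 and 0.454. For Cyp1a2, of 7 tested genes of the aryl hydrocarbon receptor (of 8 listed) 0 passed in limma, 1 had an unadjusted p under 0.05 and 3 were negative, with a median of 0.033. Nqo1 had the lowest p there, at 361 ± 75.8 in VPA_OCA and 251 ± 22.3 in VPA (limma adjusted p = 0.126, 0.0407 with the term, 0.0561 with the replicate block), and it did not pass with the term and VPA_OCA replicate 6 left out. Ahrr, Cyp1b1 and Cyp1a1 had adjusted p-values of 0.726, 0.786 and 0.85.

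**Figure D5:**
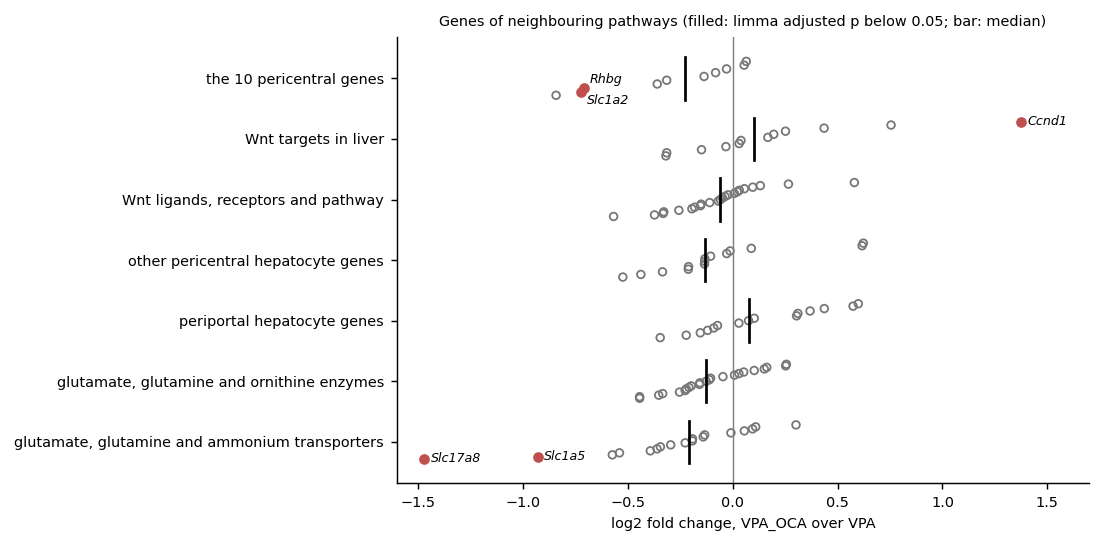
Log2 fold change, VPA_OCA over VPA (horizontal axis), of the 10 genes and of each tested gene of 6 wider lists; filled points passed limma with an adjusted p under 0.05 and bars are list medians. Slc17a8 (-1.47) and Slc1a5 (-0.93) were lower among transporters, Ccnd1 (1.37) was higher among Wnt targets, and no filled point lies in the other 4 of the 6 lists.

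Markers of the cells that whole liver holds were measured beside these values. Hepatocyte markers (7 of 8 listed found by symbol) summed to 97330 to 157000 FPKM in VPA_OCA and 114500 to 153800 in VPA, and 0 of 7 passed. Markers of endothelial cells were negative for 15 of 15 genes, beside 50.1% of all genes, with a median log2 fold change of -0.195, and 0 passed. This list does not set endothelial cells of the central vein apart from those of the sinusoids. Lyve1, a hyaluronan receptor gene of sinusoidal and lymphatic endothelium, measured 105.1 ± 23.5 normalized counts in VPA_OCA and 164.0 ± 32.5 in VPA, a log2 fold change of -0.64 that passed with the term for numbers (limma adjusted p = 0.115, 0.0314 with the term, 0.0834 with the replicate block). Within numbers 4 to 6 alone the endothelial marker Fcgr2b (limma adjusted p = 0.0414) and the stellate cell marker Rgs5 (0.0475) were lower. The endothelial sum was 130.8 to 190.6 FPKM in VPA_OCA and 126.6 to 229.6 in VPA, with a median log2 fold change of 0.069 for numbers 1 to 3 and of -0.506 for numbers 4 to 6. Markers of Kupffer cells, stellate cells and cholangiocytes had medians of -0.131, -0.169 and -0.014, with 0 of 7, 0 of 7 and 0 of 6 passing. At an unadjusted limma p under 0.05 there was 1 hepatocyte, 1 endothelial and 1 stellate cell marker, all lower in VPA_OCA, and no marker of the other lists. Their sums overlapped between groups, at 100.9 to 171.0 FPKM in VPA_OCA and 86.47 to 249.1 in VPA for Kupffer cells, 95.16 to 125.4 in VPA_OCA and 94.61 to 143.7 in VPA for stellate cells, and 15.02 to 32.11 in VPA_OCA and 18.12 to 33.09 in VPA for cholangiocytes. Skeletal muscle markers summed to 1.32 to 2.16 FPKM in VPA_OCA and 0.472 to 24.4 in VPA, with 2 of 6 genes tested and neither passing. No marker in these lists was at 0 in every library, and the part of these cells in the results was not tested. Within numbers 1 to 3, where the endothelial median was 0.069, the log2 difference of Slc1a2 was -0.58, that of Rhbg -0.52 and that of Oat -0.54. Within numbers 4 to 6, where the endothelial median was -0.506, the 3 differences were larger in size, at -0.86 for Slc1a2, -0.90 for Rhbg and -1.14 for Oat. None of the 3 passed in the limma interaction of group with number set (adjusted p = 0.764 for Slc1a2, 0.73 for Rhbg and 0.643 for Oat). Kupffer cell medians were 0.213 within 1 to 3 and -0.406 within 4 to 6, and stellate cell medians -0.045 and -0.24. Hepatocyte medians were -0.06 and 0.005, and cholangiocyte medians -0.33 and 0.005. Without both VPA replicates 4 and 5 Slc1a2 had a limma adjusted p of 0.0271 and Rhbg of 0.127.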

How the data were processed

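Liver RNA of 12 mice was extracted with Trizol and made into TruSeq libraries, per the labels' protocols. The submitters' processing notes name edgeR and the build GRCm38.p5; aligner, counter, annotation and strandedness: not given in the sources used here. The authors' table was used, with columns matched to samples by title and 0 per-sample columns left unused. It holds normalized counts (a signal per gene: estimated counts divided by a factor per library, per the file headers and values), FPKM values (the authors' normalized count per gene length and column total), a GC fraction that the authors deposited, and the authors' p-values and adjusted p-values. Cells with a decimal comma and exponent read 1000 times too high and were scaled down by 1000 (218 per-library values, none of the 10 genes, 238 p-values and 88 adjusted p-values). Adjusted p-values recomputed over the 12517 genes then differed from the deposited ones by at most 0.538%. A log2 ratio column was not used. Of values up to 20 steps of the commonest low value, 79.8% to 84.7% per library lay within 0.1 of a whole multiple, so reads were not recovered and no count model was run.

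Genes that reached a normalized count of 1 in 6 or more libraries were compared as log2(value + 1) in limma 3.58.1 (R 4.3.3; intensity trend, group as the only term), with Benjamini-Hochberg adjustment. The pseudocount makes fold changes of low genes too small. Permutations ran in Python 3.11.15 with SciPy 1.17.1 and the fits were tested on simulated data. The 10 genes and the lists were chosen with earlier results of these data known. Named genes are the 10, every gene of a list past the threshold, otherwise up to 4 of a list by p, the 3 nearest genes to a member (2 of these are not reported here), and Slc51b, Cyp8b1 and Nr1h4; Cyp2f2, Lyve1, Fcgr2b and the markers with a library apart were named after their values were seen. Cyp8b1 measured 528 ± 252 in VPA_OCA and 2484 ± 689 in VPA. Same-numbered libraries of the groups had correlations of 0.478, 0.15, 0.327, 0.2, 0.364 and 0.372 for numbers 1 to 6, over the 0.1 set for pairing. Values were centred by group only, so the division of numbers 1 to 3 from 4 to 6 enters these correlations. Passing 0.1 therefore cannot show pairing, and the best match was the same number for only 2 of 6. The replicate block is given where it changes a call. The labels do not say what a number marks. Alternatives were other filters, pseudocounts, scalings, units, tests and libraries left out. Promoters came from the RefSeq table (7 of 10 genes matched). P-values set a difference or a correlation against the spread between these libraries.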

Additional observations from a re-analysis of the deposited data

Results flagged for a closer look

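No library of the 10 pericentral genes stood apart from the other 5 of its group by Dixon's ratio (limit 0.625 for 6 libraries). Over 126 groups of values, which also took in markers and neighbouring genes named in the text, 8 had a library apart, where chance gives about 1 in 20. Among Kupffer cell markers, Marco stood at 269.6 normalized counts in VPA_OCA replicate 1 (31.2 to 87.13 in the other VPA_OCA libraries) and at 111.8 in VPA replicate 4, against 26.07 to 54.04 in the other VPA libraries. Among cholangiocyte markers, Krt19 measured 98.02 in VPA_OCA replicate 3, against 10.63 to 26.84 in its group, and Cftr 6.15 in VPA replicate 3, against 1.0 to 2.108. The stellate cell marker Rgs5 measured 974.6 in VPA_OCA replicate 2, against 487.5 to 639.8 in its group. The hepatocyte marker Apob measured 97050 in VPA replicate 1, against 68660 to 77720. The skeletal muscle genes Ckm and Mylpf measured 127.0 and 81.61 in VPA replicate 4, against 0 to 21.82 and 4.216 to 29.1 in the other VPA libraries. In these libraries Slc1a2 measured 2209 in VPA_OCA replicate 1, 1997 in VPA_OCA replicate 2, 2092 in VPA_OCA replicate 3, 3239 in VPA replicate 1, 3241 in VPA replicate 3 and 2436 in VPA replicate 4 (its groups do not overlap). In the same libraries Oat measured 11720 in VPA_OCA replicate 1, 7494 in VPA_OCA replicate 2, 7472 in VPA_OCA replicate 3, 13340 in VPA replicate 1, 11420 in VPA replicate 3 and 11150 in VPA replicate 4, so VPA_OCA replicate 1 lay above the last 2 of these VPA libraries.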

How the results depend on the processing

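Over all genes, 137 were called, against 210 with the replicate block, 404 with the term for numbers and 310 with that term and VPA_OCA replicate 6 left out, the last chosen after the data were seen; with 1 library left out the count was 92 to 146. Of the 10 genes, 2 were called, against 0 in limma without trend, 1 within numbers 1 to 3, 0 within 4 to 6 and 1 without both VPA replicates 4 and 5. The count was 3 with the replicate block, with the term for numbers, and with that term and VPA_OCA replicate 6 left out. It was also 3 in limma with array weights, where Oat had an adjusted p of 0.0494. With 1 library left out the count was 0 to 3, being 0 without VPA replicate 6, 3 without VPA_OCA replicate 1, and 1 without any one of VPA replicates 1, 3, 4 and 5 and VPA_OCA replicates 3, 4 and 5. The causes were not tested, and fits within a set have 3 libraries a group. The replicate block changed the call of Oat and of no other among the 10. Other signs turned for genes that never passed. The log2 fold change of Slc1a4 was 0.137 within 4 to 6, 0.031 without VPA replicates 4 and 5 and -0.281 to 0.067 with 1 library left out. Lgr5 had -0.411 within 1 to 3 and -0.060 without VPA replicates 4 and 5, and -0.066 to 0.185 with 1 left out. Cyp1a2 had 0.022 with array weights, 0.031 within 1 to 3 and 0.148 without VPA replicates 4 and 5, and -0.139 to 0.098 with 1 left out; Axin2 had -0.054 to 0.153. Of the 10 within-library pairs, which were chosen with the falls of Slc1a2, Oat and Rhbg known and so support nothing, 7 had an adjusted exact permutation p under 0.05 with all libraries and 5 to 8 with 1 left out. No pair covaried past adjustment under any alternative run. Within 1 set of numbers, or with 1 or 2 libraries left out, there were fewer reorderings than the 1296 of the main run. A single pair could not pass adjustment over 45 pairs there, so those runs decide little. Scalings moved the median log2 fold change of all genes to at most -0.008. How far depth limits single genes was not measured.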
